A study of Mus musculus with 60 samples.

Results

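A set of 10 heat shock chaperone genes, chosen by name, was followed through 59 libraries of mouse embryonic fibroblasts, normal tissues and tumours. The genes are Hsp90aa1 (ENSMUSG00000021270), Stip1 (ENSMUSG00000024966), Ppid (ENSMUSG00000027804), Hspa8 (ENSMUSG00000015656), Hspa1a (ENSMUSG00000091971), Hspa1b (ENSMUSG00000090877), Hsph1 (ENSMUSG00000029657), Dnajb1 (ENSMUSG00000005483), Hspd1 (ENSMUSG00000025980) and Hspe1 (ENSMUSG00000073676). All 10 symbols were found in both count tables, among 46517 genes of the fibroblast table and 54838 genes of the tissue table. The set was drawn up after Ppid and Stip1 had been seen to be lower at the later fibroblast passage, so the passage values below are a description without a test.

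The study made a mouse line with a CD74-NRG1 fusion transgene in the Rosa26 locus behind an FRT-flanked stop cassette and crossed it to a Flp deleter strain, which gives near-ubiquitous expression of the fusion. Messenger RNA was read from the 3' end (QuantSeq), so a gene's count does not grow with its length. Fibroblasts came from embryos that were CD74-NRG1 negative (Rosa26Flp/Flp), heterozygous (Rosa26FSF.CD74-NRG1/Flp) or homozygous (Rosa26FSF.CD74-NRG1/FSF.CD74-NRG1), 3 embryos each, so the negative and heterozygous embryos share a Flp allele. The negative group is embryos 1, 5 and 8, the heterozygous group embryos 2, 4 and 6, and the homozygous group embryos 3, 7 and 10. Each embryo was sampled at passage 1 and passage 3. For embryo 8 the labels disagree: the library used here as passage 1, after its group label and column name, is titled passage 2, and its other library was not used. Embryo 8 therefore enters the genotype comparisons at passage 1 and no passage comparison, and without it no member passed in those genotype comparisons either. Of the 42 tissue libraries, 30 were normal tissues of 9 Rosa26CD74-NRG1/Flp mice. These were 8 livers, 7 lungs, 6 spleens, 6 muscles, 2 brains and 1 kidney. Among the tumours were sarcomas of 6 mice in 7 libraries, 3 tumours of the liver, and 2 tumour libraries from the intestine of 1 mouse. Whether these 2 libraries come from 1 tumour is not stated in the labels, and they are together called the intestine tumour below. Normal tissues and tumours therefore carry the same transgene and the same Flp allele, no tissue of a mouse without the fusion was analysed here, and no age of the mice is stated in the labels.

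Heat shock proteins keep other proteins folded. Hsp70 proteins bind unfolded stretches of a client with the help of Hsp40 partners and release it when a nucleotide exchange factor acts, and the co-chaperone Stip1 hands clients on to Hsp90. Hsp60 and its lid, Hsp10, fold imported proteins inside mitochondria. Heat shock factor 1 raises transcription of many of these genes when unfolded protein accumulates, by binding heat shock elements in their promoters, while others are made at a high level in unstressed cells.

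Total counts per library were 3107529 to 5000067 in 17 fibroblast libraries and 4837440 to 10089572 in 42 tissue libraries. Levels are given in CPM, the count of a gene scaled to a common library total. Nrg1 (ENSMUSG00000062991), the part of the fusion that checks the genotype labels, went against them in 2 embryos. Embryo 1, labelled negative, held 132 and 147 CPM of Nrg1 at passages 1 and 3, and embryo 3, labelled homozygous, held 0.644 and 1.28 CPM. The mitochondrial share of counts was 0.42 to 0.79% in fibroblasts, 21.09 to 34.8% in muscle, 9.79 to 20.06% in normal liver and 5.56 to 13.4% in sarcomas. The defining markers of muscle, liver, spleen and lung were high in the libraries so labelled. The muscle markers summed to 13724 and 14174 CPM in the muscles of mice M00238 and M00237 and to at least 22932 CPM in the other muscles. The 2 intestine tumour libraries held lymphocyte markers at 1748 and 2097 CPM, a level found elsewhere in the spleen libraries only.

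Hspa8, which encodes the constitutive Hsp70 Hsc70, needs a remark on read assignment before its values are used. Searching the annotated transcripts for runs of 25 identical bases found near-identical copies of it. The lincRNA Gm26825 shares 89.0% of its 25-base words with the opposite strand of Hspa8, and the processed pseudogene Gm8355 shares 75.0% with the same strand. Copies that share at least 50% of their words and 200 words were added to Hspa8 where its values are given with copies. Gm26825 held a median of 319 CPM in fibroblasts and 191 CPM in tissues, and Gm8355 held a median of 316 CPM in fibroblasts and 0 in tissues. The value of Hspa8 was fractional in 17 of 17 fibroblast and 42 of 42 tissue libraries.

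In fibroblasts, Hspa8 fell into high and low embryos that kept their place at both passages. Embryos 1, 3, 4 and 6 held between 624 CPM (embryo 3, passage 3) and 734 CPM (embryo 1, passage 3). Embryos 2, 5, 7, 8 and 10 held between 395 CPM (embryo 5, passage 3) and 538 CPM (embryo 2, passage 1). The 2 sets of embryos do not overlap and do not follow the genotype labels, as each label has embryos in both. Of the spread of Hspa8 within a passage, 98.5% lay between embryos, the highest share among the 10 genes, of which the lowest was 29.8% (Stip1). With 2 values per embryo, unrelated values would also give a sizeable share, and the share over all genes was not taken. Of all counts assigned to Hspa8 and its copies, the share listed under Hspa8 was 59.72 to 66.4% in embryos 1, 3, 4 and 6 and 38.15 to 42.37% in the other embryos. Summed with its copies, Hspa8 lay between 962 CPM (embryo 3, passage 3) and 1314 CPM (embryo 2, passage 1), with no gap between the 2 sets, and 66.0% of the spread lay between embryos. The sum does not separate the copies, and Gm8355 rose and fell with Hspa8 over the 17 libraries (Pearson r of log2(CPM + 1) 0.87).

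Tissues showed the same kind of division by mouse. The share of counts listed under Hspa8 was 97.6 to 99.3% in every library of mice M00235, M00246 and M00248 and 43.0 to 69.7% in every library of the other 6 mice. Of the spread of Hspa8 within tissues, 75.5% lay between mice, a share higher than in 99.7% of 12152 genes, whose median was 31.1%. With the copies summed it was 46.1%. Tumours and normal tissues of a mouse fell on the same side. Values of Hspa8 are therefore given below both as deposited and with the copies. The cause of this division was not tested.

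**Figure D1:**
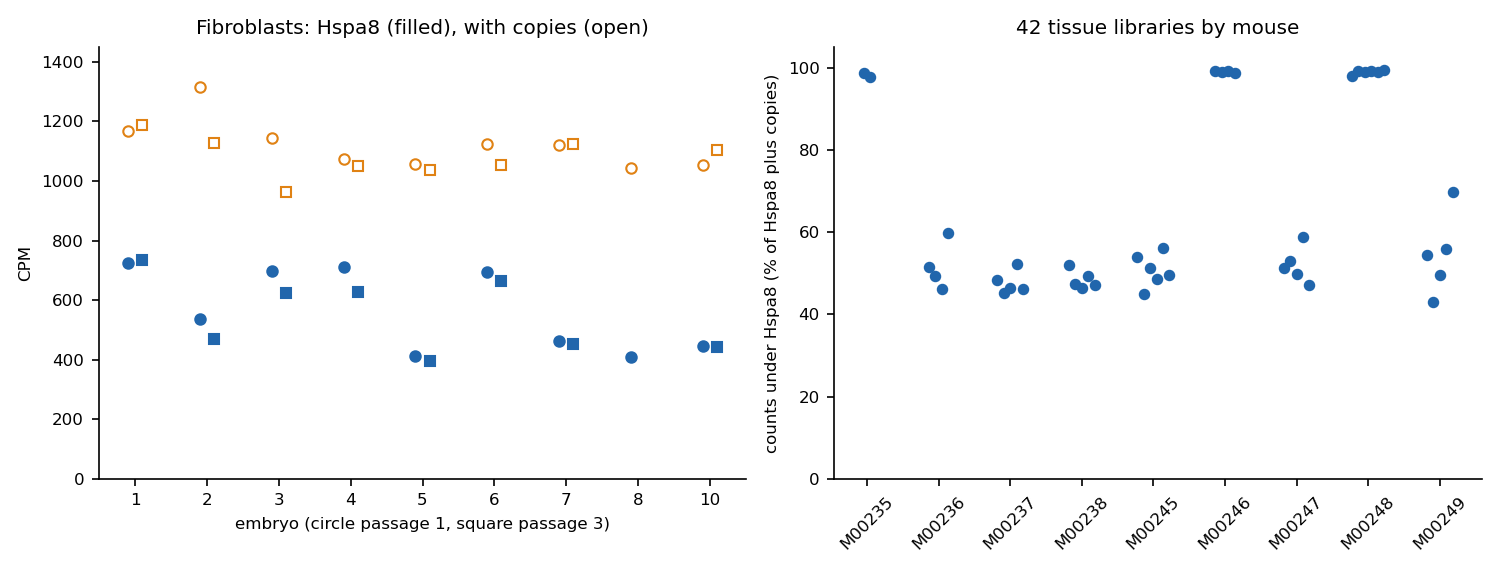
Hspa8 and its near-identical copies. Left, CPM of Hspa8 in each fibroblast library (filled) and of Hspa8 with its copies (open), by embryo, with circles for passage 1 and squares for passage 3; embryos 1, 3, 4 and 6 sit at 624 to 734 CPM and the others at 395 to 538 CPM, while the open symbols lie between 962 and 1314 CPM. Right, the percent of the counts of Hspa8 and its copies that is listed under Hspa8 in 42 tissue libraries, by mouse; M00235, M00246 and M00248 lie at 97.6% or above.

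The first comparison was between passages in cultures of the same embryo, for the 8 embryos with both. Ppid was lower at passage 3 in 8 of 8 embryos, and Stip1, Hspd1 and Hspa8 were lower in 7 of 8. Hspa1a and Hsph1 were higher at passage 3 in 7 of 8 embryos and Hspa1b in 6 of 8. The sizes were small for the abundant genes. The mean log2 differences of the 10 genes, from CPM paired by embryo, ran from -0.32 (Ppid) to 0.50 (Hspa1a).

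Among the Hsp90 genes, Hsp90aa1, the stress-responsive cytosolic Hsp90, ran from 1472 to 1813 CPM at passage 1 (median 1529) and from 1336 to 1600 CPM at passage 3 (median 1494). It was lower in 5 of 8 embryos, and the passages overlap. Stip1, the adaptor that links Hsp70 to Hsp90, went from 319 ± 18.4 to 285 ± 14.2 CPM (SD, n = 8 and 8), with embryo 10 alone moving up, from 295 to 301 CPM. Ppid, a cyclophilin that binds Hsp90 and assists its clients, ran from 70.7 to 83.0 CPM at passage 1 (median 75.0) and from 55.0 to 70.0 CPM at passage 3 (median 60.9). All passage 3 values of Ppid lay below all passage 1 values. Its smallest difference was in embryo 10, from 74.2 to 70.0 CPM, and its largest, as a ratio, in embryo 7, from 76.6 to 55.0 CPM.

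The Hsp70 genes did not move together. Hspa8 went from 586 ± 135 to 551 ± 126 CPM (SD, n = 8 and 8), a mean log2 difference of -0.09 (SD 0.08), less than the division between embryos. Hspa1a and Hspa1b encode the inducible Hsp70 and were low. Hspa1a ran from 4.92 to 7.67 CPM at passage 1 (median 7.24) and from 5.57 to 16.6 CPM at passage 3 (median 9.92). Hspa1b ran from 10.3 to 22.6 CPM (median 16.5) and from 13.1 to 24.3 CPM (median 21.8). The largest differences of both were in embryos 2 and 6, labelled heterozygous. In embryo 6, Hspa1a went from 6.78 to 16.6 CPM and Hspa1b from 10.7 to 22.5 CPM. In embryo 10 Hspa1a was lower at passage 3.

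Of the partners of Hsp70, Hsph1, the Hsp110 nucleotide exchange factor, went from 102 ± 9.69 to 110 ± 12.5 CPM (SD, n = 8 and 8). Of its within-passage spread 89.9% lay between embryos, again without a share over all genes beside it. Embryo 10 was lowest at both passages, at 85.7 and 92.6 CPM. Dnajb1, the inducible Hsp40, held 49.1 ± 5.73 and 49.7 ± 5.46 CPM and was lower in embryos 1 and 6 and higher in the others. The mitochondrial Hsp60 gene Hspd1 went from 1855 ± 179 to 1667 ± 54.2 CPM, and Hspe1, its Hsp10 lid, from 481 ± 20.0 to 450 ± 39.8 CPM. Both were higher at passage 3 in embryo 10, where Hspd1 went from 1520 to 1776 CPM and Hspe1 from 463 to 538 CPM.

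**Figure D2:**
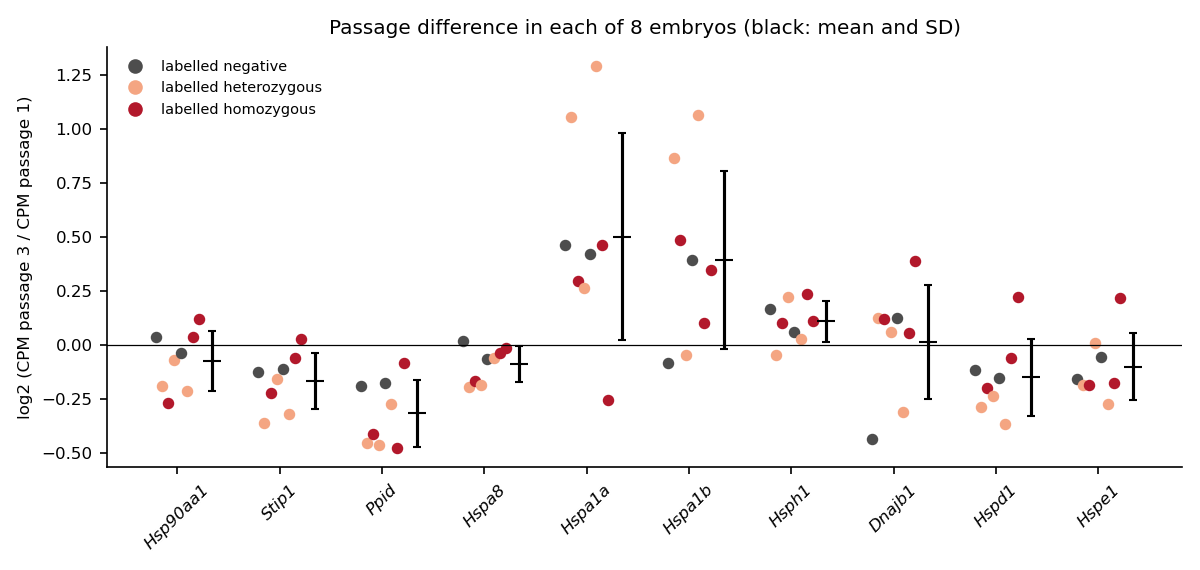
Log2 ratio of CPM at passage 3 to passage 1 in each of 8 embryos (points, coloured by genotype label) with the mean and SD of the 8 (black), for the 10 genes. All 8 points of Ppid lie below 0, and the points of Hspa1a and Hspa1b spread furthest.

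Over all genes, the edgeR quasi-likelihood test with the embryo as a block listed 1 of the 10, Ppid, as lower at passage 3 (log2 -0.33, SE 0.06), where 0.869% of 12320 genes were listed as lower, and nothing is read from that count. The median of the 10 was -0.10 and that of all genes tested -0.005. Ppid left the list when embryo 1, 2, 3, 4 or 7 was left out, and without embryo 10 the list held Ppid, Hspa1a and Hspd1. Without embryos 1 and 3, whose Nrg1 contradicts their labels, no member was listed.

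Related genes were counted in lists of other chaperones, and few passed the test between passages. None of 14 further genes of the Hsp90 machinery passed, at a median log2 of -0.13 and a range of -0.33 (Fkbp4, a cochaperone immunophilin) to 0.05. None of 18 genes of the Hsp70 and Hsp40 system passed (median 0.03), nor any of 14 genes of the cytosolic chaperonin and prefoldin (-0.09), 9 mitochondrial chaperones and proteases (0.03) or 15 chaperones of the endoplasmic reticulum (0.03). Of 6 tested small heat shock proteins, 1 rose. It was Hspb8, a partner of Bag3 in autophagy of misfolded proteins (log2 0.40, SE 0.09, edgeR adjusted p = 0.0429). None of 8 mitosis genes passed (median -0.18). Of 9 immediate early genes 1 rose, Egr1 (log2 0.26, SE 0.04, edgeR adjusted p = 0.014), while the list had a median of -0.13 and a range of -0.80 to 0.36. Of 7 fibroblast markers (median 0.19) 1 rose, Thy1 (0.38, SE 0.07, adjusted p = 0.0225). With library totals the small heat shock, immediate early and fibroblast lists also held 1 higher gene each, where 205 of 12320 genes were higher. Macrophage markers, of which none of 6 passed (median 0.42), summed to 55.7 to 1904 CPM over the passage 1 libraries and 687 to 1617 CPM over the passage 3 libraries, with none at 0. The part of these lists in the passage differences was not tested.

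Genotype labels were compared at each passage. Across these labels the number of Flp alleles falls as that of fusion alleles rises, so a part of either cannot be told apart. None of the 10 genes passed the edgeR test in any of the 4 comparisons with the negative label, where 0% of 12357 genes passed. DESeq2 called none of them either, and 1 gene in all in homozygous against negative at passage 1. The tests at an unadjusted p under 0.05 held 1258, 416, 302 and 465 genes, none of them a member. The smallest unadjusted p of a member was 0.0708, for Hsp90aa1 in heterozygous against negative at passage 1 (edgeR log2 0.18, SE 0.09, adjusted p = 1). Its values were 1813, 1481 and 1672 CPM in embryos 2, 4 and 6 and 1555, 1472 and 1463 CPM in embryos 1, 5 and 8, and embryo 4 lies within the negative group. In the edgeR test of whether the passage difference differs between the homozygous and the negative label, no member and 0% of 12320 genes passed, with 413 genes and no member at an unadjusted p under 0.05. DESeq2 called 1 gene there, which was no member. Hspa8 had the widest standard errors of the abundant members, 0.26 at passage 1, and 0.09 with its copies summed. The log2 of Hspa8 for homozygous against negative at passage 1 was 0.08 as deposited and 0.03 with the copies. These groups follow the labels, which Nrg1 contradicts in embryos 1 and 3, and without those embryos no member passed either.

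Across tissues each gene had an order of its own, given here in CPM of a gene against itself. By group mean, the brains and the intestine tumour were the highest groups for Hsp90aa1, Stip1 and Ppid. Hsp90aa1 held 2110 and 2760 CPM in the brains and 1592 and 1394 CPM in the intestine tumour. Spleen followed, with 693 to 1676 CPM (median 1018), and lung, with 574 to 1320 CPM (median 858). Spleen overlaps with both the intestine tumour and lung. The kidney held 509 CPM, and muscle was lowest, with 145 to 312 CPM (median 223). Stip1 was at 97.2 and 89.1 CPM in the intestine tumour and 85.4 and 86.4 CPM in the brains. It lay between 10.1 and 85.5 CPM in the other groups, each of which overlaps with the next in the order of means, and the highest spleen overlaps with the brains. Ppid was at 65.8 and 63.8 CPM in the intestine tumour, at 47.6 and 46.2 CPM in the brains, and at 12.7 CPM in the kidney, below every other library.

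The inducible Hsp70 genes had the widest range over tissues. Hspa1a was highest in muscle, at 16.0 to 28.3 CPM (median 20.3), followed by the sarcomas, with 5.40 to 16.4 CPM per mouse (median 11.0). Lung ran from 1.93 to 15.9 CPM (median 5.80) and spleen from 0.615 to 2.34 CPM (median 0.841). In liver it was near the limit of detection, with 0.106 to 0.785 CPM (median 0.284), from 1 to 6 counts a library. Hspa1b was also highest in muscle, at 18.7 to 63.2 CPM (median 44.98), and low in spleen, at 0.647 to 3.28 CPM (median 1.45), where it overlaps with the intestine tumour. Unlike Hspa1a it was measurable in liver, at 1.44 to 10.9 CPM (median 4.74).

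Both genes lie on chromosome 17 and have nearly the same coding sequence, with 99.6% of aligned bases identical, but their sequences after the coding part share only 71.6% of aligned bases. Reads from the 3' end can thus be told apart in part, and the values of single libraries were mostly fractional. Of the counts of the pair, Hspa1a took 2.09 to 12.5% in normal livers, 25.9 to 47.9% in muscles and 37.9 to 65.8% in lungs. The promoter windows of the pair in RefSeq (assembly GRCm38.p6, 300 bases around the start) were identical at 98.7% of bases. The stretch around a heat shock element of 2 units is shown for both because it is the same in the pair, with capitals marking the inverted units of 3 bases.
Hspa1a, chr17:34972242-34972271, minus strand: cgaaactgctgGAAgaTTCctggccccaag
Hspa1b, chr17:34959324-34959353, minus strand: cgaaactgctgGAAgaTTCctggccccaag
The letters searched were GAANNTTC and TTCNNGAA for 2 units and GAANNTTCNNGAA and TTCNNGAANNTTC for 3, each of which reads as itself or the other on the opposite strand, and a match of 3 units holds 2 overlapping matches of 2. A match of 2 units was present in 15.06% and one of 3 units in 0.6% of 32851 promoters. A match is a description of these letters and not of binding.

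Hsph1 was highest in the brains, at 129 and 141 CPM, then in the intestine tumour, at 64.9 and 69.9 CPM, and every other library was at 47.2 CPM or lower. Its lowest value, 5.45 CPM, was in the lung of M00238, a library that was also lowest of all 42 for Stip1 (10.1 CPM) and highest of the lungs for Dnajb1 (43.0 CPM) and Hspa8 (400 CPM). In Hsph1 a match of 3 units was found 15 or 36 bases after its annotated starts. Dnajb1 was lowest in liver, at 9.73 to 15.2 CPM (median 12.4), and highest by mean in spleen, at 15.7 to 53.5 CPM (median 36.3), which overlaps with the brains. No match was found in its windows or in that of Stip1.

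**Figure D3:**
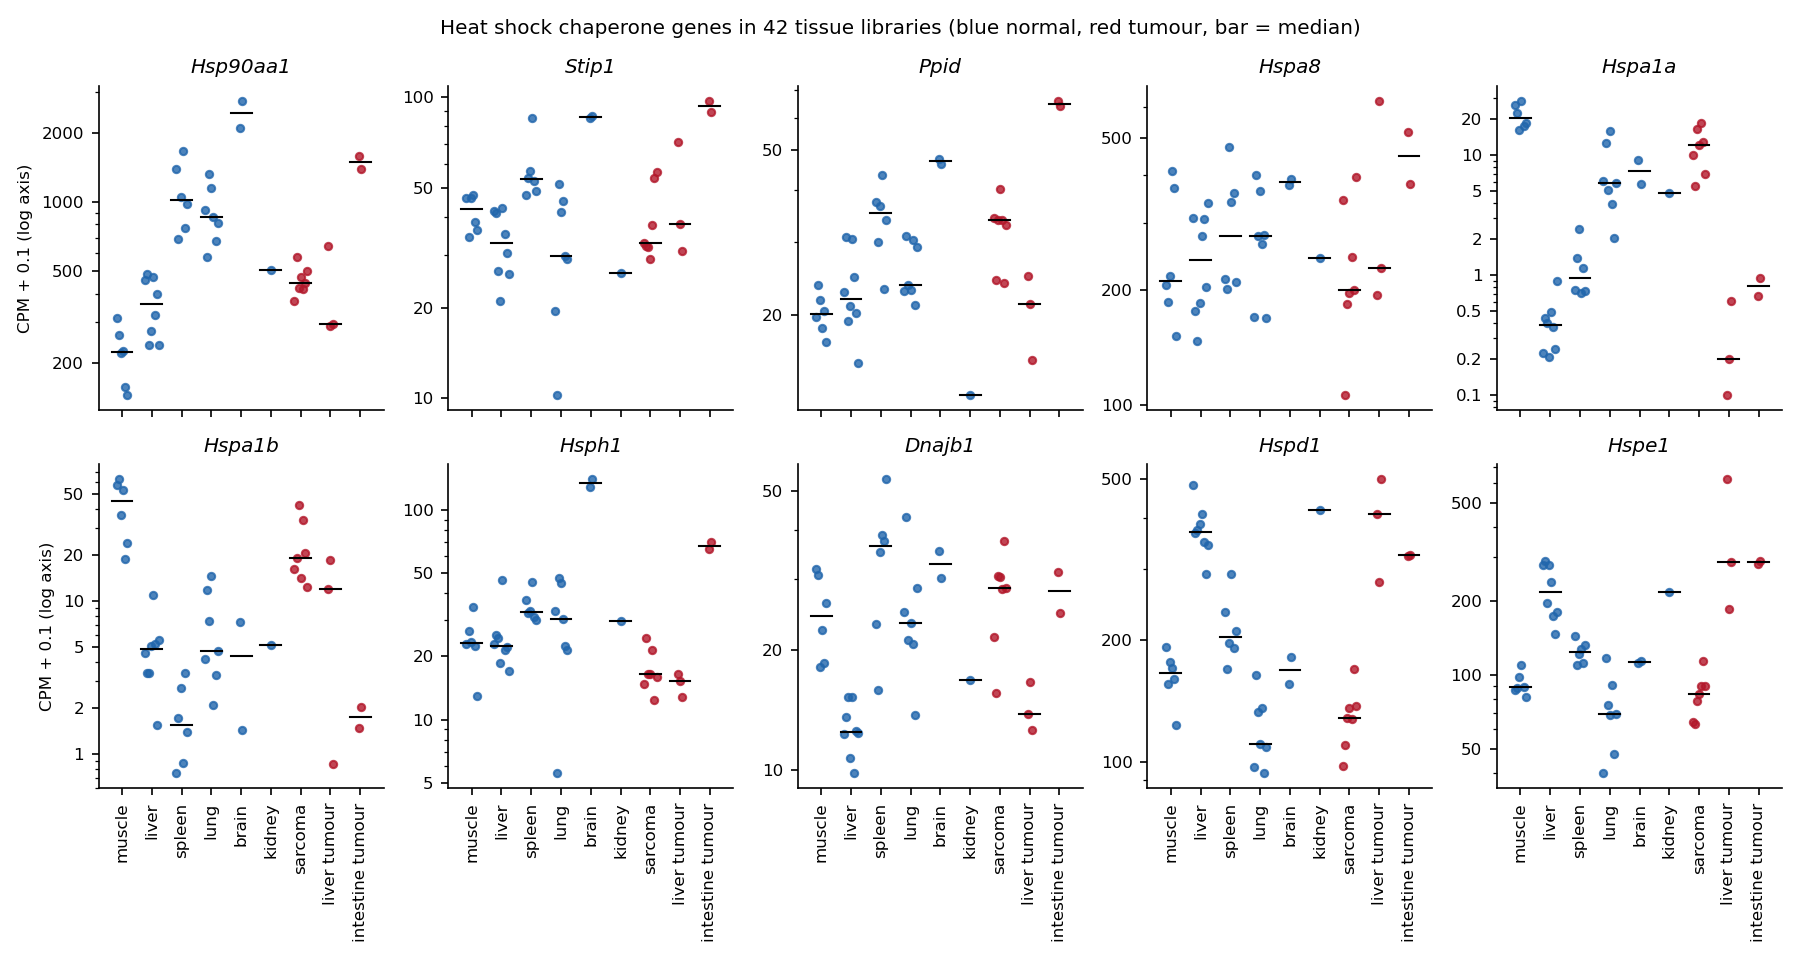
CPM plus 0.1 (log axis) of the 10 genes in each of 42 tissue libraries, normal tissues in blue and tumours in red, with the median as a bar. Hspa1a and Hspa1b are high in muscle and sarcoma, Hspd1 and Hspe1 in liver and liver tumour, and Hsp90aa1 and Hsph1 in the brains.

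By group mean, Hspd1 was highest in kidney, liver tumour and normal liver, and Hspe1 in liver tumour, intestine tumour and normal liver. The intestine tumour libraries held 282 and 290 CPM of Hspe1, which overlaps with normal liver. Hspd1 ran from 291 to 482 CPM in normal liver (median 370) and Hspe1 from 146 to 290 CPM (median 217). In lung the values were 93.6 to 164 CPM (median 111) for Hspd1 and 39.7 to 117 CPM (median 69.2) for Hspe1, and the lung and liver values of each gene do not overlap. Over the 42 tissue libraries, the gene most like Hspd1 of 12475 genes was Hspe1, and the reverse (Pearson r of log2(CPM + 1) 0.93). Timm8a1, a chaperone of the mitochondrial intermembrane space, came next for both, with r of 0.92 and 0.88. These libraries share mice and fall into tissues, so the r is a description. The log2 ratio of Hspd1 to Hspe1 ranged from -0.61 to 1.29, and the lowest was in the liver tumour of M00236, with 409 CPM of Hspd1 and 626 CPM of Hspe1, the only library with more Hspe1 than Hspd1. In fibroblasts neither was among the 3 genes most like the other.

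Hspd1 and Hspe1 are neighbours on chromosome 1 that are read in opposite directions from a shared stretch. The stretch is shown because 1 run of bases serves 1 window of each gene, with capitals for the heat shock element of 4 units that it holds. The other Hspd1 window (chr1:55088194-55088493) held no match.
Hspd1, chr1:55088053-55088082, minus strand: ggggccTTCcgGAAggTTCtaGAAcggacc
Hspe1, chr1:55088053-55088082, plus strand: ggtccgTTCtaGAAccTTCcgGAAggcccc
Of the 10 genes, 7 had a window in the table, which lacks Hsp90aa1, Hspa8 and Ppid. The copy AC117239.2 shares 74.5% of its words with Hspe1, and 64.5 to 100% of the counts of both were listed under Hspe1 in tissues.

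**Figure D4:**
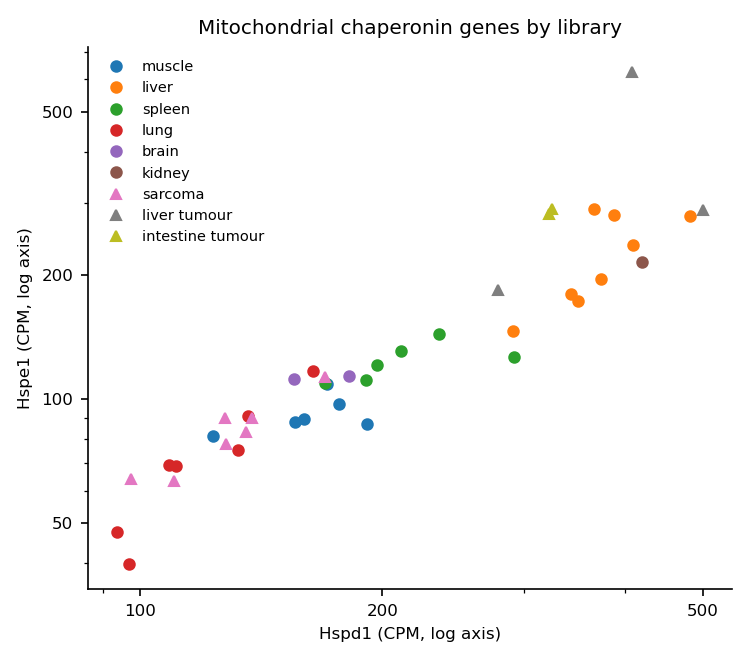
CPM of Hspe1 against CPM of Hspd1 (both log axes) in 42 tissue libraries, circles for normal tissues and triangles for tumours. The libraries lie along a band from lung and sarcoma to liver, and the liver tumour of M00236 stands above it at 409 and 626 CPM.

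Other genes were ranked by likeness over the same 42 libraries. Hspa1a was most like Cryab, a small heat shock protein of muscle and lens (0.95), Phka1, a subunit of muscle phosphorylase kinase (0.93), and Pkia, an inhibitor of protein kinase A (0.93). Hspa1b was most like Pkp1, Adh7 and the basal keratin Krt5 (0.86, 0.85 and 0.85). Hsp90aa1 was most like Jakmip1, Tox2 and Slc38a1 (0.86 to 0.85), and Hsph1 like Nefh, a neurofilament gene (0.75), and Strbp (0.73). Hspa8 had no gene above 0.55. Over the 17 fibroblast libraries Stip1 was most like Pms2, Pa2g4 and Fkbp4 (0.89 to 0.88), and Hspa8 most like Rplp1 (0.92) and its own copy Gm8355 (0.87).

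Sarcomas were then set against muscle, liver, spleen and lung in 1 fit, because the tissue of origin is not in the labels. Relative to all genes, the mitochondrial pair was lower in sarcoma than in muscle, liver and spleen, and the inducible Hsp70 genes were lower than in muscle and higher than in liver and spleen. Hsp90aa1 and Hsph1 were lower than in spleen and lung. In bulk tissue, fewer cells of a type and less RNA per cell cannot be told apart.

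The scaling of the libraries moved these results. Scaling by library totals in place of TMM, an alternative added after the data were seen, moved the median log2 of all genes by 0.98 against muscle, 1.24 against liver, 0.47 against spleen, 0.14 against lung and 0.18 in the liver tumour comparison. With TMM the medians of all genes were 0.09, 0.22, 0.005, 0.02 and 0.09, and those of the members -1.16, -0.94, -0.99, -0.02 and 0.04. Values below use TMM, so a change is relative to the bulk of genes, and library totals are named where the direction or the call differs.

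Against muscle, 8 of the 10 genes were lower in sarcoma by edgeR, where 26.5% of 17766 genes were lower and 27.7% higher. With library totals 2 were higher and 3 lower, where 58% were higher and 11.8% lower. Against liver, 7 were lower and 2 higher, where 30.6% were lower and 38.3% higher, and with library totals 2 were lower and 4 higher, beside 13.4% and 66.8%. Against spleen, 8 were lower and 2 higher, where 25% were lower and 27.3% higher, and with library totals 4 were lower and 2 higher, beside 14.4% and 39.3%. Against lung, 2 were lower and 1 higher, where 24% were lower and 20% higher. The same counts held against lung with library totals, beside 20.3% and 23.7%.

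The sarcoma values of Hspd1, 97.3 to 149 CPM per mouse (median 132), lay below all livers (291 to 482 CPM) and all spleens (170 to 291 CPM) and overlapped with muscle (123 to 192 CPM). The edgeR log2 fold change was -2.83 against liver (SE 0.18, adjusted p = 2.4e-15), -1.27 against spleen (SE 0.18, adjusted p = 2.73e-07) and -1.35 against muscle (SE 0.18, adjusted p = 1.04e-07). With library totals it stayed lower in all 3, at -1.56, -0.77 and -0.36. Against lung it was -0.05 (SE 0.17) and turned to 0.08 with library totals. Hspe1 held 63.2 to 102 CPM per mouse (median 80.5), below all livers and all spleens. Its log2 fold changes were -2.74 against liver (SE 0.21, adjusted p = 3.12e-13), -1.13 against spleen (SE 0.21) and -1.20 against muscle (SE 0.21), and with library totals the muscle value of -0.20 did not pass (adjusted p = 0.389). With the counts of its copy added, Hspe1 stayed lower than in muscle, liver and spleen, at -1.08, -2.60 and -1.004.

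**Figure D5:**
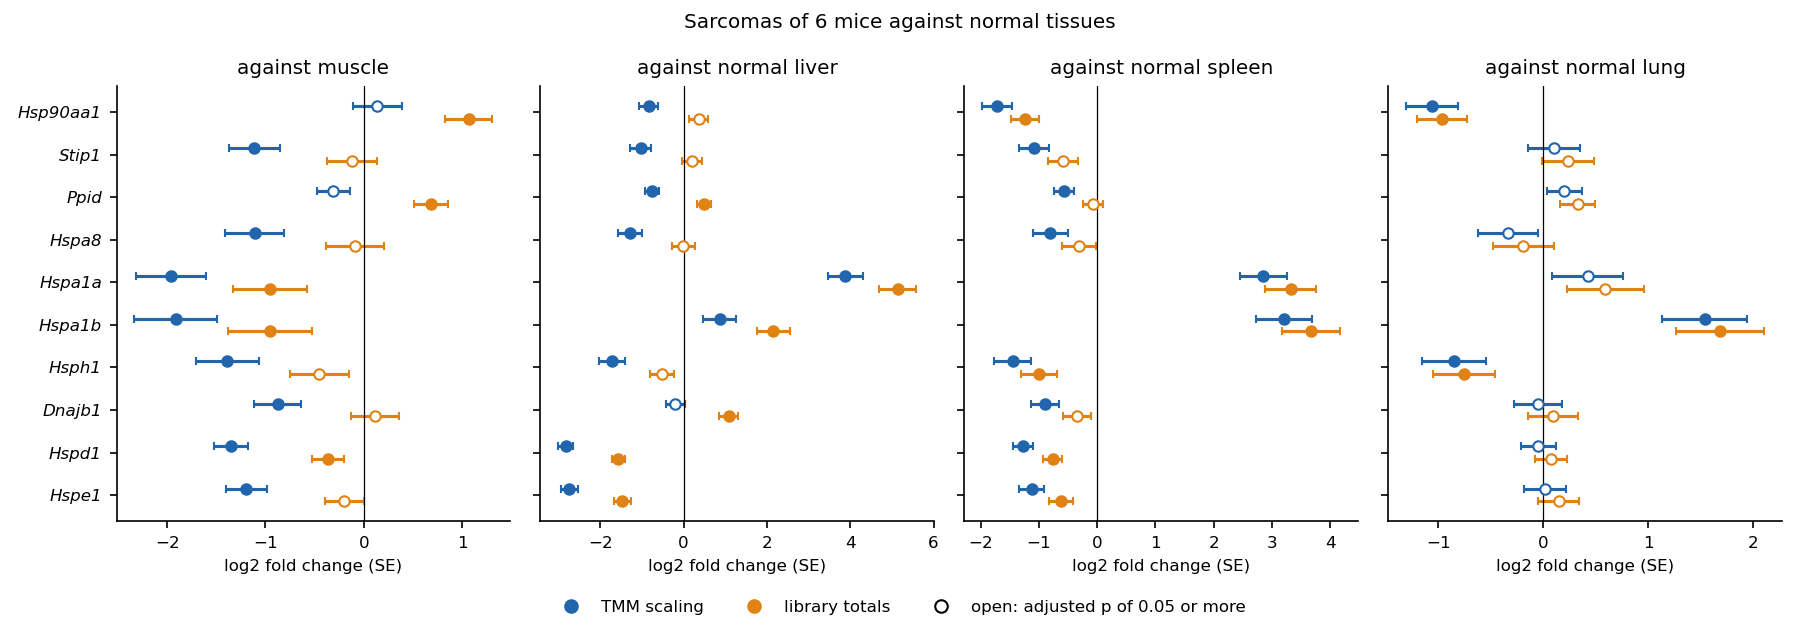
Log2 fold change (SE) of sarcoma against 4 normal tissues for the 10 genes, from edgeR with TMM scaling (blue) and with library totals (orange). Open symbols have an adjusted p of 0.05 or more; Hspa1a and Hspa1b lie to the right of 0 against liver and spleen and to the left against muscle under both scalings, and Hspd1 and Hspe1 lie furthest left against liver.

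Of the inducible Hsp70 genes, Hspa1a was higher in every sarcoma mouse (5.40 to 16.4 CPM) than in every liver (up to 0.785 CPM) and every spleen (up to 2.34 CPM). The edgeR log2 fold change was 3.88 against liver (SE 0.42, adjusted p = 6.93e-10) and 2.85 against spleen (SE 0.41, adjusted p = 4.14e-07). The size against liver rests on 1 to 6 counts a library and so on the prior count of the fit. Against muscle it was -1.96 (SE 0.36, adjusted p = 2.37e-05), though the sarcoma of M00237, at 16.4 CPM, lay above the muscle of M00245, at 16.0 CPM. Against lung, 0.42 (SE 0.34) did not pass.

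Hspa1b held 12.3 to 42.3 CPM per sarcoma mouse (median 17.6), above all livers and all spleens. Its log2 fold change was 3.21 against spleen (SE 0.48, adjusted p = 9.52e-07), 1.54 against lung (SE 0.41, adjusted p = 0.00229) and -1.91 against muscle (SE 0.42, adjusted p = 2.56e-04). Against liver it was 0.87 (SE 0.39, adjusted p = 0.0486), which left the list when any of 10 of 14 libraries was left out, for example 0.63 (adjusted p = 0.168) without the sarcoma of M00237. With library totals it was 2.16 (adjusted p = 1.51e-05). Summing the counts of the pair, also added after the data were seen, gave -1.93 against muscle, 1.37 against liver, 3.09 against spleen and 1.06 against lung, and all 4 passed (adjusted p = 9.23e-05, 0.00134, 3.07e-07 and 0.0185). Immediate early genes, which respond to handling of tissue as heat shock genes can, were counted beside them. Of 9, none was higher and 4 lower against muscle (2 and 2 with library totals), 5 higher and 2 lower against liver (6 and 0), 5 higher and 1 lower against spleen (6 and 0), and none higher and 6 lower against lung (0 and 4). Their part in these results was not tested.

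Hspa8 was lower than in muscle (log2 -1.11, SE 0.30, adjusted p = 0.00208), liver (-1.29, SE 0.28, adjusted p = 1.71e-04) and spleen (-0.81, SE 0.30, adjusted p = 0.022) by edgeR, and in none of these with library totals (-0.09, -0.01 and -0.31). The spleen call was lost without the sarcoma of M00236 or M00237 or the spleen of M00246 or M00247. With its copies summed, the standard errors dropped to between 0.19 and 0.20. The log2 values were then -1.08 against muscle, -1.24 against liver and -0.81 against spleen (adjusted p = 0.001), and the value against lung passed, at -0.52 (adjusted p = 0.0298) in place of -0.34 (adjusted p = 0.36). Sarcomas held 106 to 395 CPM of Hspa8 per mouse as deposited, with M00235 and M00248, whose counts are nearly all under Hspa8, at 343 and 395 CPM and the other 4 mice lower, down to 106 CPM.

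Hsph1 held 14.6 to 24.4 CPM per sarcoma mouse (median 16.4), below every spleen (29.7 to 45.2 CPM). It was lower than in muscle (log2 -1.39, SE 0.32), liver (-1.72, SE 0.31), spleen (-1.45, SE 0.32) and lung (-0.85, SE 0.31, adjusted p = 0.0242). With library totals the muscle and liver calls were lost, at -0.45 and -0.51. The lung call was lost without the sarcoma of M00237 or M00245 or the lung of M00245 or M00246. It was also lost with the mouse as a block (-0.80, adjusted p = 0.055), and kept without the lung of M00238. Dnajb1 was lower than in muscle (-0.88, SE 0.24) and spleen (-0.89, SE 0.24), neither of which passed with library totals. Against liver it was -0.20 (SE 0.23, adjusted p = 0.443) with TMM and 1.08 (adjusted p = 8.09e-05) with library totals. In CPM every sarcoma mouse (15.5 to 32.9) lay above every liver (9.73 to 15.2).

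For Hsp90aa1, sarcomas held 372 to 576 CPM per mouse (median 452), below every spleen and above every muscle, and they overlap with lung through the sarcoma of M00236 at 576 CPM and the lung of M00238 at 574 CPM. The log2 fold change was -1.72 against spleen (SE 0.26, adjusted p = 9.72e-07) and -1.06 against lung (SE 0.25, adjusted p = 6.06e-04), and both passed with library totals. Against muscle it was 0.14 (SE 0.25, adjusted p = 0.668) with TMM and 1.07 (adjusted p = 2.5e-04) with library totals, and against liver -0.84 (SE 0.24, adjusted p = 0.00236) and 0.36 (adjusted p = 0.136). Stip1 was lower than in muscle (-1.11, SE 0.26), liver (-1.03, SE 0.25) and spleen (-1.09, SE 0.26) with TMM. None of these passed with library totals, where the liver value turned to 0.21. Ppid was lower than in liver (-0.76, SE 0.16, adjusted p = 1.38e-04) and spleen (-0.57, SE 0.17, adjusted p = 0.00596) with TMM, but with library totals the spleen call was lost (-0.08, adjusted p = 0.736) and Ppid was higher than in liver (0.49, adjusted p = 0.00576). Against muscle Ppid was at -0.31 (adjusted p = 0.132) with TMM and 0.68 (adjusted p = 8.38e-04) with library totals.

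Cell type markers moved with every one of these contrasts. All 6 skeletal muscle markers were lower in sarcoma than in muscle, with sums of 19.8 to 2775 CPM against 13724 to 25732 CPM. The same 6 were all higher in sarcoma than in liver (median log2 3.82) and spleen (4.23). Against lung 5 of the 6 were higher with library totals (4.33). All 6 hepatocyte markers were lower than in liver (87.9 to 581 against 34991 to 63457 CPM), all 6 lymphocyte markers lower than in spleen (12.7 to 51.3 against 645 to 1947 CPM) and all 5 lung epithelium markers lower than in lung (46.4 to 86.2 against 21759 to 76746 CPM). In no tissue library was more than 1 marker of any of these lists at 0. Fibroblast markers were higher in sarcoma for 5 of 7 against muscle, 7 against liver and spleen and 6 against lung (1 lower), with sums of 7585 to 31456 CPM in sarcomas and at most 1550 CPM in those tissues. Mitosis genes were higher for 8 of 8 against muscle, liver and lung, and 4 were lower against spleen. Macrophage markers were higher for 5 of 6 against muscle, and lower for 3 against liver, 6 against spleen and 2 against lung (1 higher). With library totals the macrophage split against liver was 3 higher and 1 lower. The part of these cells in the chaperone differences cannot be told apart from the comparison itself.

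Other chaperones were counted for the same contrasts, and for most lists the direction depended on the scaling. Small heat shock proteins were lower than in muscle for 7 of 7 with TMM (median log2 -4.67) and 6 of 7 with library totals (-3.69), among them Hspb1 (-4.67 with TMM), Cryab (-2.78) and Hspb6 (-5.45). They were higher than in spleen for 6 of 7 under both scalings (medians 2.06 and 2.48), led by Cryab (4.78) and Hspb2 (4.43). Mitochondrial chaperones and proteases were lower than in liver for 9 of 9 with TMM (median -1.85), and 6 lower and 1 higher with library totals (-0.58). The mitochondrial Hsp70 Hspa9 was lower than in liver under both, at -2.68 and -1.43, and than in muscle, at -2.15 and -1.16.

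Further genes of the Hsp90 machinery turned with the scaling. Against muscle 9 of 14 were lower with TMM (median -0.66), and 6 higher and none lower with library totals (0.32). Against liver 8 were lower and 1 higher with TMM (-0.58), and 10 higher and 1 lower with library totals (0.68). The cytosolic chaperonin and prefoldin genes did the same, with 8 of 14 lower against muscle with TMM (-0.58) and 8 higher with library totals (0.42). Chaperones of the endoplasmic reticulum were higher than in muscle for 9 of 15, with 1 lower, with TMM (0.61), and for 13 with library totals (1.59). Against liver all 15 were lower with TMM (-1.62), and 5 lower and 1 higher with library totals (-0.40). Of 18 genes of the Hsp70 and Hsp40 system, 4 were higher and 12 lower against muscle with TMM (7 and 4 with library totals). Against liver 4 were higher and 9 lower (13 and 1). Against spleen the counts were 4 and 8 (8 and 2), and against lung 2 and 5 (3 and 3). Among these genes Hspa12a, an atypical Hsp70, was higher than in liver (4.92), spleen (4.17) and lung (2.56). Bag3, a stress-induced exchange factor, was higher than in spleen (2.51) and lung (0.94), and both genes passed in the same direction with library totals.

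Liver tumours were compared with normal liver, 3 libraries against 8. The library of M00249 is titled liver and counts as a tumour by its group label alone, and without it no member passed either. None of the 9 members tested passed the edgeR test, where 10.6% of 13256 genes passed, and Hspa1a, with 0, 0.0991 and 0.506 CPM in the tumours, was too low to test. The count of 0 in the tumour of M00236 allows up to 3 counts. Of the 9, 1 had an unadjusted p under 0.05, and DESeq2 called the same 1, Hsph1. It held 16.5, 15.2 and 12.7 CPM in the tumours of M00236, M00248 and M00249 against 16.9 to 46.4 CPM in normal livers (median 22.4). All 3 tumours lay below all 8 livers (log2 -0.91, SE 0.29, edgeR adjusted p = 0.0608). It passed with edgeR when the liver of M00245 or of M00247 was left out (adjusted p = 0.0352 and 0.0416).

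The other members varied between the 3 tumours more than they differed from liver. Hspe1 held 626 CPM in the tumour of M00236, 185 in that of M00248 and 288 in that of M00249, against 146 to 290 CPM in normal livers (log2 0.56, SE 0.34, adjusted p = 0.332). Stip1 held 71.1 CPM and Hsp90aa1 644 CPM in the tumour of M00236, above all normal livers, and the other 2 tumours lay within the normal range for both. Hspa8 stood at 624 CPM in the tumour of M00248, as deposited and in a mouse whose counts are nearly all under Hspa8. Its log2 fold change was 0.33 (SE 0.37), and 0.06 (SE 0.26) with the copies. Hspa1b held 11.9, 18.5 and 0.760 CPM (log2 0.92, SE 0.65), the first 2 of them above all normal livers. Elsewhere in the network, 5 of 14 genes of the cytosolic chaperonin and prefoldin were higher in the tumours, namely Pfdn1 (log2 0.91, adjusted p = 0.0078), Pfdn4, Vbp1, Cct5 and Pfdn5, and the small heat shock protein Hspb1 was higher (2.39, adjusted p = 0.0215). Of 8 immediate early genes tested, 3 were higher, and of 6 hepatocyte markers 1 was lower. With library totals 6 of 14 chaperonin and prefoldin genes and 4 of 8 immediate early genes were higher. So were 3 of 7 fibroblast markers (median log2 2.05) and 1 of 8 mitosis genes (2.05), where 1388 of 13256 genes were higher. The part of these lists was not tested.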

How the data were processed

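Messenger RNA of mouse fibroblasts, tissues and tumours was measured by QuantSeq 3' sequencing, per the labels' protocols. The authors deposited expected counts per gene, estimates that need not be whole (6.57% of fibroblast and 8.35% of tissue values were fractional). Aligner, counter and genome build: not given in the sources used here. Counts were rounded. Mouse M00245 has 2 sarcoma libraries, whose counts were added to give 1 sample. Of the columns, 1 matched no label and was not used, which leaves embryo 8 without a passage 3 library. The members and lists were chosen with earlier results of these data known.

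Tests were edgeR 4.0.16 quasi-likelihood tests in R 4.3.3 with TMM scaling, filterByExpr (minimum count 10) and Benjamini-Hochberg adjustment over all genes at 0.05, on samples grouped by their labels. The passage fit had the embryo as a block, and the paired libraries of an embryo correlated at 0.078 to 0.367 in their deviations. Sarcomas and normal tissues of the same mice pair by animal, with correlations of -0.076 to 0.376, and liver tumours with livers, at -0.157 and -0.185. The fibroblast genotypes, and the 4 sarcoma contrasts, each shared a fit. Standard errors are the log2 fold change over the root of F. Alternatives were other scaling (relative log expression, library totals), DESeq2 1.42.0, other filters, the mouse as a block, copies summed and each animal left out. Genes other than members were named as the up to 4 list genes with the smallest adjusted p in a comparison, and from the 3 most correlated genes of a member, of which some are not reported here. Pfdn5, Cct5 and Fkbp4 were named after their values were seen. The fits were tested on simulated data with the same spread for all genes. The simulation held no animal effects and no shift in composition between groups, so it does not cover these. P-values measure the spread between these samples, and a floor of 3 counts for a count of 0 covers counting error only. Sequences are from RefSeq (GRCm38.p6) and were matched by symbol.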

Additional observations from a re-analysis of the deposited data

Results flagged for a closer look

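Groups of values were examined, each a gene's CPM by mouse in a tissue or its passage differences by embryo. Of 60 such groups, 5 held a value far from the others. The cutoff is passed by about 1 in 20 groups of independent, normally distributed values. These groups share animals, so that rate need not hold here. Hspa1a in normal liver was highest in M00248, at 0.785 CPM beside the next 0.396 CPM, a difference of a few counts. In the liver of M00245 both Hspa1b (10.9 CPM, next 5.51) and Hsph1 (46.4 CPM, next 25.1) stood above the other livers. Hsph1 in the sarcoma of M00236 was at 24.4 CPM, next 16.8. Stip1 in the spleen of M00247 was at 85.5 CPM, next 56.6.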

How the results depend on the processing

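The count of members listed between passages was 1 in all settings except without embryos 1 and 3, where it was 0, and with single embryos left out, where it ran from 0 to 3. Without the replicate block for embryo it was also 1, with 131 genes listed in place of 291. No embryo 8 pair could be left out. With library totals the members called were 5 against muscle and 6 against spleen. In liver tumours the count was 1, Hsph1, with DESeq2 and with a filter at a mean of 5 CPM, and 0 to 1 with single animals left out.

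Log2 values turned in sign with library totals to 0.12 for Dnajb1 and 0.68 for Ppid against muscle, to 0.36 (Hsp90aa1), 1.08 (Dnajb1), 0.21 (Stip1) and 0.49 (Ppid) against liver, to 0.10 (Dnajb1) and 0.0752 (Hspd1) against lung, and to 0.18 (Dnajb1) and 0.0788 (Hspd1) in liver tumours. Between passages Dnajb1 went from -0.0015 to 0.0153 with library totals. With the mouse as a replicate block they turned to -0.012 for Hsp90aa1 against muscle, 0.11 for Dnajb1 against lung and 0.0944 for Dnajb1 in liver tumours, and the block changed no call of a member other than that of Hsph1 against lung. Values near 0 also turned for Hspe1 against lung with no filter (-0.0013) or only library T1 of M00245 (-0.0193), and for Hsp90aa1 in liver tumours with no filter (-0.0434), relative log expression (-0.0015), DESeq2 (-0.0016) or without mitochondrial, haemoglobin and immunoglobulin genes (-0.0222). The cause was not tested.

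With single animals left out, signs turned in liver tumours for Dnajb1 (-0.13 to 0.11), Hsp90aa1 (-0.53 to 0.25), Hspa8 (-0.40 to 0.59), Hspd1 (-0.26 to 0.0824), Hspe1 (-0.15 to 0.88) and Stip1 (-0.16 to 0.60). Against lung they turned for Dnajb1 (-0.15 to 0.11), Hspd1 (-0.10 to 0.0221), Hspe1 (-0.087 to 0.15) and Stip1 (-0.0611 to 0.23), and against muscle for Hsp90aa1 (-0.001 to 0.22). Between passages, with single embryos left out, the sign turned for Dnajb1 (-0.0395 to 0.0782). Of 689 such values 645 were counted as unchanged, and of 592 under the other settings 556 were. For tissues, unchanged means that direction and side of the threshold were kept. A passage value also counted as unchanged if it shifted by less than its standard error times the root of the number of embryos. The losses and gains of passage calls named above are therefore among the unchanged values. Hspa1a in liver rests on few counts. Library totals and summed copies were chosen after seeing the data.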
